A study of Mus musculus with 11 samples.

Results

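The acute-phase and IL-6 family genes described here are 10 mouse genes, Saa3, Lcn2, Ptx3, Hp, Il6, Lif, Osmr, Il6st, Il1r1 and Il1rn, of the 16576 genes listed in at least 1 of the 3 deposited count tables. They were taken by gene name, and all 10 were listed and passed the filter on low counts in all 3 tables. The set was put together with results of these tables known, so the values of the 10 genes are given as a description and carry no p-value. Bulk RNA sequencing was done on flow-sorted stromal cells of the bone marrow, in 11 samples that were placed in 4 groups. Adult wild-type cells sorted as PDGFRa+CD51+ made up 3 samples. Cells with deletion of Igf1r, the receptor of insulin-like growth factors, sorted as PDGFRa+Sca1+, made up 3 samples whose titles call them Cre-positive. Their labels give no age, and the series text places them with the perinatal cells. Perinatal wild-type cells sorted as PDGFRa+Sca1- made up 2 samples, replicates 2 and 3. Perinatal wild-type cells sorted as PDGFRa+Sca1+, Cre-negative by title, made up 3 samples, and these were the reference in every comparison. Cre therefore ran together with the deletion, and age ran together with the sort gate. The Cre driver and the number of animals per sample remain not given in the sources used here, and a p-value here speaks only of sample-to-sample spread, part of which may be technical.

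Acute-phase proteins are secreted or raised when tissue is injured or inflamed, chiefly by the liver and also by stromal cells and phagocytes. IL-6 family ligands bind specific receptors that pass the signal through the shared chain encoded by Il6st to JAK kinases and the transcription factor STAT3, which in turn induces the feedback inhibitor SOCS3. IL-1 signals through the receptor encoded by Il1r1 and the adaptor MyD88 to NF-kB, and NF-kB and C/EBP factors are known to drive many acute-phase genes and Il6. In bone marrow and bone, stromal cells are a known source of IL-6, and the IL-6 family is known for its effects on bone formation, bone resorption and blood cell production.

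The promoters of Saa3, Lcn2, Ptx3 and Il6, the secreted products that the results turn on, are shown here, from RefSeq on GRCm38.p6, each running from 250 bases before the start site to 50 after it. A window was found for 9 of the 10 genes, 12 windows in all, since Il1r1 had 2 and Il1rn 3, and Hp had none in the table used. Capitals mark matches to the NF-kB motif GGGANNNNCC, the C/EBP motif TTNNGNAA, the STAT motif TTCNNNGAA or the AP-1 motif TGANTCA on either strand. The windows are chr7:46715627-46715926 on the minus strand for Saa3, chr2:32387690-32387989 on the minus strand for Lcn2, chr3:66219637-66219936 on the plus strand for Ptx3 and chr5:30012864-30013163 on the plus strand for Il6.
Saa3: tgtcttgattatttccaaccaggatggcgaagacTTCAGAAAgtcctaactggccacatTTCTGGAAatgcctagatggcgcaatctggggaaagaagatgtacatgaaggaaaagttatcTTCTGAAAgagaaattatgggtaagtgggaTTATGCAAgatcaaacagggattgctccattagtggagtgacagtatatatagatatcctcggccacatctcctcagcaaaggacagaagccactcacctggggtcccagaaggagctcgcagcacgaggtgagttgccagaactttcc
Lcn2: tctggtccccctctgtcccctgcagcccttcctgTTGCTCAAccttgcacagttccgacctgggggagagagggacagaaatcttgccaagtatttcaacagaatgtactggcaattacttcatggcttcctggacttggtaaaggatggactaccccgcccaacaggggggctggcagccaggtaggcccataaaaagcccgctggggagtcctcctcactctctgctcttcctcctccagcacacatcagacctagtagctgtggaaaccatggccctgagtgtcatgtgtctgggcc
Ptx3: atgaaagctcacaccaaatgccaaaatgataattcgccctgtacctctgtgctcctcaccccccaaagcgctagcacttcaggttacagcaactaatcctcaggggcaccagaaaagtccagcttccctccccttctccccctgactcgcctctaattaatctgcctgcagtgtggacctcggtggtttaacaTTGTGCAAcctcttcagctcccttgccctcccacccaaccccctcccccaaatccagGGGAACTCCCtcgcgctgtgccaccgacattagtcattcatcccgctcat
Il6: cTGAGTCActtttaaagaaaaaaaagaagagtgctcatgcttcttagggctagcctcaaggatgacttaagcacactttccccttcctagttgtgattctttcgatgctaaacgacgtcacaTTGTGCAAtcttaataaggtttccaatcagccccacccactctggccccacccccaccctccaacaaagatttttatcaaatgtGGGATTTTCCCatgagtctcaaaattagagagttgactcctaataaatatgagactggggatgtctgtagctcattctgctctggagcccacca

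The Saa3 window held 4 C/EBP matches, starting 216, 191, 129 and 99 bases before the start site. The Ptx3 window held a C/EBP match 57 bases before the start site and an NF-kB match at the start site itself. In the Il6 window the NF-kB match lies on both strands, with starts at 44 and 43 bases before the start site that overlap, beside a C/EBP and an AP-1 match farther upstream. The Lcn2 window held a single C/EBP match on the minus strand. Of the 12 windows, 8 held a C/EBP match, 5 an NF-kB match, 4 an AP-1 match and 0 a STAT match. The C/EBP matches of Il1rn lie in the 2 windows farther along the gene, which overlap and share them. Of all 32851 windows of this length in the table, 40.7% held the C/EBP letters, 20.7% the NF-kB letters, 7.81% the AP-1 letters and 8.3% the STAT letters. These are matches of letters and do not show that a factor binds.

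Library totals ran from 13412316 to 23782217 counts, so the floor of 3 counts stood at 0.126 to 0.224 CPM, which are counts scaled to a common total per library, and covers counting error only. Levels below are CPM of single libraries, and log2 differences come from edgeR fits of each table by itself. Igf1r was at 8.20, 4.22 and 3.24 CPM in the knockout libraries, against 29.5, 31.7 and 30.7 CPM in controls, a log2 difference of -2.55 (SE 0.34) with an edgeR adjusted p of 0.0816, over the threshold of 0.05. Ly6a, which encodes Sca1, ran against the labels: it stood at 666 and 659 CPM in the libraries labelled Sca1-negative, against 13.8 and 10.03 CPM in the libraries labelled Sca1-positive, replicates 2 and 3 (edgeR adjusted p = 0.00147). The knockouts, at 768, 682 and 930 CPM of Ly6a, and control 1, at 425 CPM, were high. Controls 2 and 3 are the low libraries, so the deletion ran together with high Ly6a except for control 1. With that single Ly6a-high control, deletion and Ly6a level can hardly be told apart. Perinatal replicates 2 and 3 are the same libraries in all 3 tables, so the comparisons share them. Replicate 1 differs: the adult and the knockout tables hold separate libraries for it, and 1.72% of the genes they share had equal counts. Because of Ly6a, counts of genes and many log2 differences in the adult and knockout tables are also given against replicate 1 alone. The adult table does not list Ly6a, so whether its own replicate 1 was high in Ly6a is not known. In bulk samples, fewer cells of a type and less RNA per cell cannot be told apart.

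The acute-phase product Saa3 stood far higher in Igf1r knockout cells than in controls, and the pattern recognition protein Ptx3, the iron-siderophore carrier Lcn2, Il6 and the receptors Osmr, Il6st and Il1r1 were higher too. In all of these 7 genes the 3 knockout libraries lay above the 3 controls. Of these controls, only control 1 was high in Ly6a, as the knockouts were. Among all 13590 genes tested, 15.4% had knockout libraries entirely above the controls and 12.6% entirely below. The genes were chosen on this contrast, so nothing is read from the count. None of the 10 genes lay entirely lower, and Hp, Lif and Il1rn overlapped. The median log2 difference of the 10 was 1.21, beside -0.03 over all genes tested.

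Saa3 (ENSMUSG00000040026, mm10 chromosome 7, 46711998 to 46715700, minus strand) encodes a serum amyloid A protein made outside the liver. It was at 27.7, 11.4 and 10.4 CPM in the knockout libraries, against 0.740, 0.693 and 0.208 CPM in controls. Every knockout library was more than 10 times above every control, and the mean level was 30.2-fold higher, with a log2 difference of 4.86 (SE 0.57). The control levels rest on 15, 12 and 3 counts, the last of these at the floor. Wild-type perinatal libraries outside this comparison varied more. Saa3 was at 4.38 CPM in perinatal replicate 1 of the adult table and at 4.0 and 0.361 CPM in the libraries labelled Sca1-negative. Lcn2 (ENSMUSG00000026822, chromosome 2, 32384633 to 32388252, minus strand) was at 21.7, 7.96 and 9.12 CPM in knockouts, against 5.28, 2.14 and 2.56 CPM in controls. Its lowest knockout lay above its highest control, control 1, and the log2 difference was 1.93 (SE 0.51). For both genes knockout 1 was the highest library by more than 2 times the next.

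Ptx3 (ENSMUSG00000027832, chromosome 3, 66219910 to 66225805, plus strand) encodes the long pentraxin PTX3, which is known to be made by stromal and myeloid cells in response to IL-1. It was at 572, 867 and 1060 CPM in knockouts, against 502, 120 and 146 CPM in controls. The groups did not overlap, but control 1 was close to knockout 1. The log2 difference was 1.71 (SE 0.60), or 2.75 (SE 0.40) without control 1, and the knockout mean was 1.66-fold that of control 1. Hp (ENSMUSG00000031722, chromosome 8, 109575128 to 109579172, minus strand) encodes haptoglobin, which binds free haemoglobin. It was at 35.8, 14.8 and 19.9 CPM in knockouts, against 13.8, 65.1 and 76.1 CPM in controls. The knockouts lay between control 1 and the other controls, with a log2 difference of -1.09 (SE 0.56). Against control 1 alone the sign turned, to 0.69 (SE 0.58).

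Il6 (ENSMUSG00000025746, chromosome 5, 30013114 to 30019981, plus strand), the founding ligand of its family, was at 133, 205 and 237 CPM in knockouts, against 115, 63.8 and 73.0 CPM in controls. All knockouts were above all controls, knockout 1 only slightly above control 1. The log2 difference was 1.22 (SE 0.37), and 0.68 (SE 0.53) against control 1 alone. Lif (ENSMUSG00000034394, chromosome 11, 4257557 to 4272514, plus strand) encodes leukaemia inhibitory factor, a ligand of the same family. It was at 16.7, 13.3 and 6.27 CPM in knockouts, against 12.2, 14.3 and 19.0 CPM in controls. The groups overlapped, and the log2 difference of -0.31 (SE 0.35) was smaller than its error.

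Osmr (ENSMUSG00000022146, chromosome 15, 6813577 to 6874969, minus strand) encodes the specific chain of the oncostatin M receptor. It was at 59.7, 62.9 and 96.9 CPM in knockouts, against 31.5, 28.5 and 35.9 CPM in controls. The 3 controls lay close together and all knockouts were clear of them, with a log2 difference of 1.24 (SE 0.29). Il6st (ENSMUSG00000021756, chromosome 13, 112464070 to 112510086, plus strand), the shared signalling chain, was at 162, 146 and 181 CPM in knockouts, against 108, 123 and 116 CPM in controls. Its groups did not overlap and the difference was the smallest of the 7, 0.54 (SE 0.22). Il1r1 (ENSMUSG00000026072, chromosome 1, 40225080 to 40317257, plus strand), the signalling receptor of IL-1, was at 46.8, 59.8 and 50.9 CPM in knockouts, against 29.4, 19.2 and 20.3 CPM in controls. It was higher in every knockout than in any control, by 1.21 (SE 0.28) on the log2 scale.

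Il1rn (ENSMUSG00000026981, chromosome 2, 24336853 to 24351494, plus strand) encodes the IL-1 receptor antagonist, a decoy ligand that blocks Il1r1. It was at 0.541, 0.685 and 3.20 CPM in knockouts, against 0.542, 3.06 and 3.46 CPM in controls. The low and the high libraries were mixed over both groups. The log2 difference was -0.54 (SE 0.86), and it was 1.42 (SE 1.35) against control 1 alone. Control 1, whose Ly6a was high, was the control nearest to the knockouts in Ptx3, Il6, Il1r1, Lcn2 and Hp. Against it alone, all 3 knockout libraries were higher for 8 of the 10 genes, and lower for 0. Of all genes tested, 39.5% were higher and 29.4% lower by the same rule.

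Markers of other cells and of tissue handling were read beside these genes. The 13 listed markers of neutrophils, cells that carry Lcn2 in their granules, summed to 66.6 to 103 CPM in knockouts and 64.2 to 88.8 CPM in controls, and none was at 0 over a group. The 9 listed macrophage markers summed to 25.1 to 33.7 CPM in knockouts and 32.2 to 44.2 CPM in controls. The 10 stromal markers summed to 75512 to 78505 CPM in knockouts and 88644 to 103949 CPM in controls. The median log2 difference of these 10 ran the other way, at 0.36. The 5 listed erythroid markers summed to 1.68 to 4.96 CPM in knockouts and 9.72 to 20.1 CPM in controls. The 8 cartilage markers summed to 214 to 415 CPM in knockouts, against 435 CPM in control 1 and 5437 and 6608 CPM in controls 2 and 3, the libraries that also held the most Hp. The 14 immediate early genes, which rise when tissue is dissociated, summed to 17917, 11250 and 7001 CPM in knockouts and 16517 to 23844 CPM in controls. Knockout 1 thus had the highest immediate early sum of the knockouts beside its high Saa3 and Lcn2. The part of these markers in the differences was not tested.

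**Figure D1:**
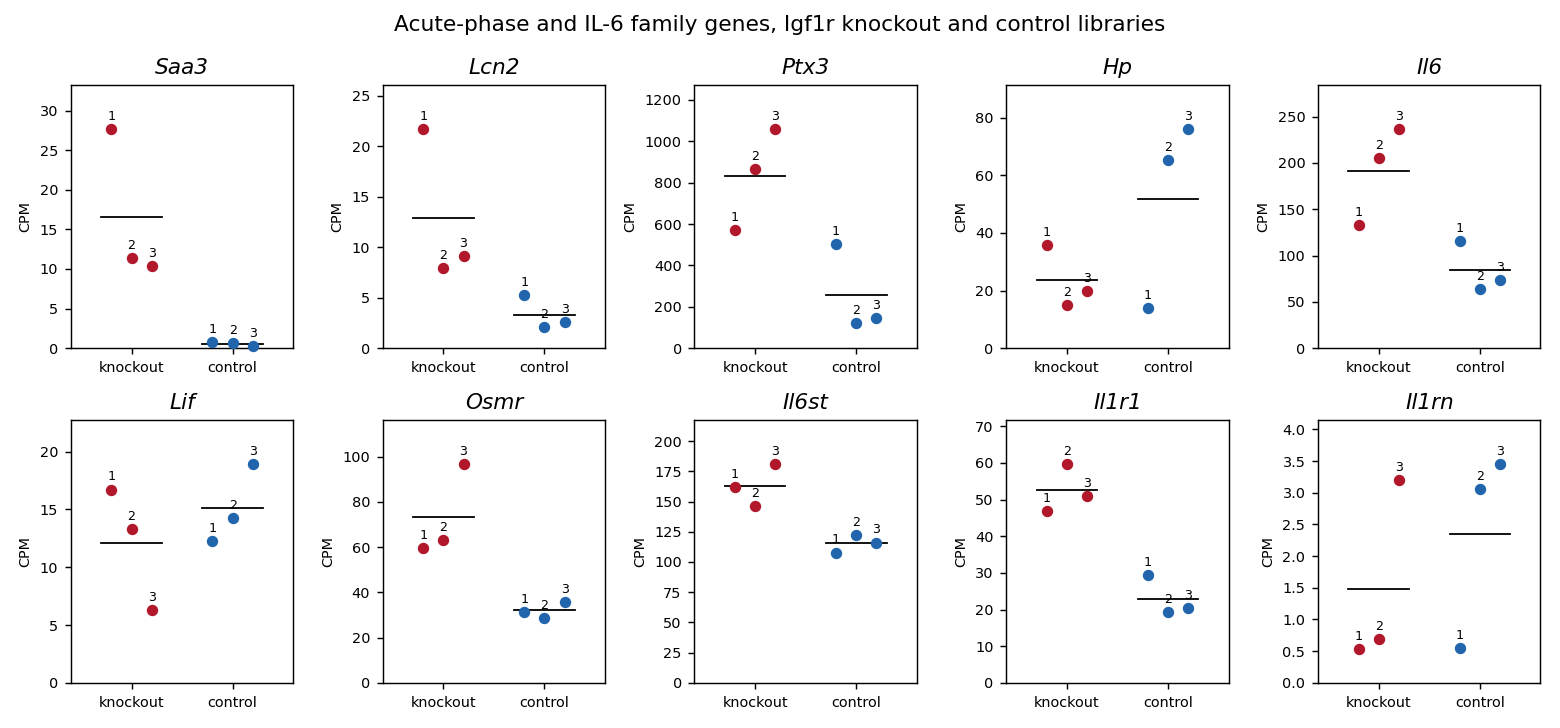
CPM of each of the 10 genes in the 3 Igf1r knockout libraries and the 3 control libraries; each point is a library with its replicate number, and the line is the group mean (n = 3 each). Saa3 lies at 10.4 to 27.7 CPM in knockouts and 0.208 to 0.740 CPM in controls, while Hp, Lif and Il1rn overlap.

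In the perinatal comparison by Sca1 label, Ptx3, Lcn2, Il6, Osmr, Il6st and Il1r1 stood higher in the Sca1-negative-labelled libraries, which are the ones with high Ly6a. Hp, Lif and Il1rn were lower there, and Saa3 overlapped. That is 6 of 10 genes entirely higher and 3 entirely lower, with 2 libraries on each side. Of all 13529 genes tested, 22.2% were entirely higher and 27.6% entirely lower. The 6 higher genes also stood entirely higher in the knockouts, where the same 2 Ly6a-low libraries were among the controls. The median log2 difference was 0.86 for the 10 genes and 0.01 for all genes.

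Ptx3 was at 507 and 469 CPM in the libraries labelled Sca1-negative, against 120 and 146 CPM in those labelled Sca1-positive. Both libraries labelled Sca1-negative were high and close to each other, and the log2 difference was 1.91 (SE 0.21). Hp was at 14.7 and 11.7 CPM in the libraries labelled Sca1-negative, against 65.1 and 76.1 CPM in those labelled Sca1-positive. It was the gene with the largest difference downward, -2.38 (SE 0.22). Lcn2 was at 5.51 and 5.20 CPM in the libraries labelled Sca1-negative, against 2.14 and 2.56 CPM in those labelled Sca1-positive, a log2 difference of 1.22 (SE 0.30). Saa3 was at 4.0 and 0.361 CPM in the libraries labelled Sca1-negative, against 0.693 and 0.208 CPM in those labelled Sca1-positive. A single library, labelled Sca1-negative replicate 2, carried the Saa3 difference of 2.28 (SE 1.11), and without it the value was -0.34 (SE 1.06).

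Il6 was at 142 and 146 CPM in the libraries labelled Sca1-negative, against 63.8 and 73.0 CPM in those labelled Sca1-positive. Its log2 difference was 1.10 (SE 0.19), with little spread on either side. Lif was at 9.97 and 10.8 CPM in the libraries labelled Sca1-negative, against 14.3 and 19.0 CPM in those labelled Sca1-positive (-0.64, SE 0.24), so the IL-6 family ligands Il6 and Lif ran in opposite directions. Osmr was at 59.4 and 40.4 CPM in the libraries labelled Sca1-negative, against 28.5 and 35.9 CPM in those labelled Sca1-positive (0.67, SE 0.26). Il6st was at 149 and 132 CPM in the libraries labelled Sca1-negative, against 123 and 116 CPM in those labelled Sca1-positive (0.28, SE 0.18). Neither receptor chain showed overlap, though the gap for each was small beside its spread. Il1r1 was at 44.8 and 35.6 CPM in the libraries labelled Sca1-negative, against 19.2 and 20.3 CPM in those labelled Sca1-positive (1.06, SE 0.21). Il1rn was at 0.525 and 0.940 CPM in the libraries labelled Sca1-negative, against 3.06 and 3.46 CPM in those labelled Sca1-positive (-2.12, SE 0.45). The receptor of IL-1 and its antagonist thus moved apart. The 8 cartilage markers summed to 294 to 398 CPM in the Ly6a-high libraries labelled Sca1-negative, against 5435 to 6604 CPM in those labelled Sca1-positive. The 13 listed neutrophil markers summed to 91.5 to 142 CPM in the Ly6a-high libraries labelled Sca1-negative, against 64.2 to 87.4 CPM in those labelled Sca1-positive. The 10 stromal markers summed to 68533 to 82112 CPM in the libraries labelled Sca1-negative, against 99562 to 103891 CPM in those labelled Sca1-positive. The collagen genes Col1a1, Col1a2 and Col3a1 led this sum, and the median log2 difference of the 10 markers was -0.23. The 5 listed erythroid markers summed to 2.75 to 10.3 CPM in the libraries labelled Sca1-negative, against 17.7 to 20.1 CPM in those labelled Sca1-positive. The 14 immediate early genes, which overlapped, summed to 10536 and 18592 CPM in the libraries labelled Sca1-negative, against 16508 and 18689 CPM in those labelled Sca1-positive. The part of these markers in the differences was not tested.

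In adult cells Il6 and Lcn2 were at or near the floor, and Il1r1 and Ptx3 were lower than in perinatal cells, while the shared receptor chain Il6st and the antagonist Il1rn were higher. The adult libraries lay entirely above the perinatal ones for 2 genes, Il6st and Il1rn, and entirely below for 4. Of all 13757 genes tested, 45.3% lay entirely above and 35.7% entirely below. The median log2 difference was -1.27 for the 10 genes and -0.06 for all genes. In this table the TMM factors shifted the log2 differences, adult minus perinatal, by -0.27. The median over all genes of the mean log2 CPM difference was -0.04 with these factors and 0.23 without them, which matters for genes with small differences.

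Il6 was at 0.289, 0.177 and 0 CPM in adult libraries, against 110, 63.8 and 73.0 CPM in perinatal libraries. All adult libraries were at or near the floor, with 8 counts in all, against 3792 in the perinatal libraries. Per count sequenced Il6 was 485-fold lower in adult cells, with a 95% exact interval of 246 to 1124 that covers counting error only. Lif was at 17.7, 13.1 and 15.5 CPM in adult libraries, against 10.6, 14.3 and 19.0 CPM in perinatal libraries. The groups overlapped, and the direction of Lif depends on the scaling, since the fitted difference was -0.19 (SE 0.25) and the difference without scaling factors was 0.11. Against perinatal replicate 1 alone the fitted Lif difference was 0.30. Il6, but not Lif, was thus near absent from the adult libraries.

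Lcn2 was at 0.116, 0.0589 and 0 CPM in adult libraries, against 3.57, 2.14 and 2.56 CPM in perinatal libraries. The adult libraries held 3 counts in all and the perinatal libraries 127, a ratio of 43.3-fold lower in adult cells with a 95% exact interval of 14.5 to 213 for counting error. Ptx3 was at 112, 58.0 and 63.7 CPM in adult libraries, against 409, 120 and 145 CPM in perinatal libraries. The highest adult library lay just below the lowest perinatal one, and the log2 difference was -1.79 (SE 0.50). It was -1.02 (SE 0.28) without perinatal replicate 1 and -2.63 (SE 0.36) against that library alone. Hp was at 4.46, 15.9 and 11.2 CPM in adult libraries, against 11.4, 65.1 and 76.1 CPM in perinatal libraries. It overlapped through perinatal replicate 1, and the log2 difference of -2.56 (SE 0.72) was -0.38 against that library alone. Saa3 was at 1.56, 1.0 and 1.19 CPM in adult libraries, against 4.38, 0.693 and 0.207 CPM in perinatal libraries. The adult libraries were even and the perinatal ones were not, and the log2 difference of -0.74 (SE 0.90) turned to 1.17 (SE 0.52) without perinatal replicate 1.

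Osmr was at 42.1, 35.3 and 36.6 CPM in adult libraries, against 39.3, 28.5 and 35.9 CPM in perinatal libraries. The groups overlapped in CPM, with a fitted difference of -0.13 (SE 0.16) that was 0.14 without scaling factors, so its direction also depends on the scaling. In the authors' TPM Osmr was at 12.3 to 14.6 in adult and 9.60 to 11.4 in perinatal libraries, without overlap. Il6st was at 193, 176 and 183 CPM in adult libraries, against 135, 122 and 116 CPM in perinatal libraries. All adult libraries were higher in CPM, and the fitted log2 difference was 0.30 (SE 0.12). The Il6st difference was 0.56 without scaling factors and 0.17 (SE 0.12) with upper quartile factors, so its size depends on the scaling. Il1r1 was at 2.55, 2.36 and 2.01 CPM in adult libraries, against 33.7, 19.2 and 20.3 CPM in perinatal libraries. Each adult library was far below each perinatal one, with a log2 difference of -3.66 (SE 0.28). Il1rn was at 5.96, 6.66 and 5.67 CPM in adult libraries, against 0, 3.06 and 3.46 CPM in perinatal libraries. Adult libraries were higher and even, with a log2 difference of 1.21 (SE 0.85), or 0.65 (SE 0.20) without perinatal replicate 1. Against that library alone, which held 0 counts, the adult mean was at least 30.1-fold higher on a floor of 3 counts. Against perinatal replicate 1 alone, 3 of the 10 genes were higher in all adult libraries and 5 lower, beside 51.1% higher and 41.4% lower of all genes tested.

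The adult libraries did not have the marker profile of stromal cells alone. The 12 macrophage markers summed to 25321 to 28599 CPM in adult libraries, against 35.7 to 44.5 CPM in perinatal libraries, led by Lyz2, Mpeg1 and C1qb. The 10 stromal markers summed to 4894 to 7556 CPM in adult libraries, against 75188 to 103859 CPM in perinatal libraries. Pdgfra, the gene of a receptor used in the sort of both groups, averaged 14.3 ± 0.869 CPM in adult cells, against 264 ± 24.7 CPM in perinatal libraries (mean ± SD, n = 3 each). The 13 listed neutrophil markers summed to 57.5 to 59.5 CPM in adult cells, against 64.2 to 87.4 CPM in perinatal libraries. Csf3r was the most abundant of them, and Elane, Fcnb, Mpo, Ngp, Retnlg and S100a9 were at 0 in all adult libraries. Of the 11 neutrophil markers tested, edgeR called 1 higher and 8 lower in adult cells, beside 37.4% and 39.7% of all genes. The 14 immediate early genes summed to 734 to 903 CPM in adult cells, against 13395 to 18683 CPM in perinatal libraries. The 8 cartilage markers summed to 51.7 to 86.5 CPM in adult cells. They summed to 380 CPM in perinatal replicate 1 and to 5434 and 6602 CPM in replicates 2 and 3, the libraries that also held the most Hp. Macrophage, stromal, neutrophil and cartilage transcripts, immediate early genes, age and sort gate all changed together with the genes that differed in this comparison. They cannot be told apart.

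**Figure D2:**
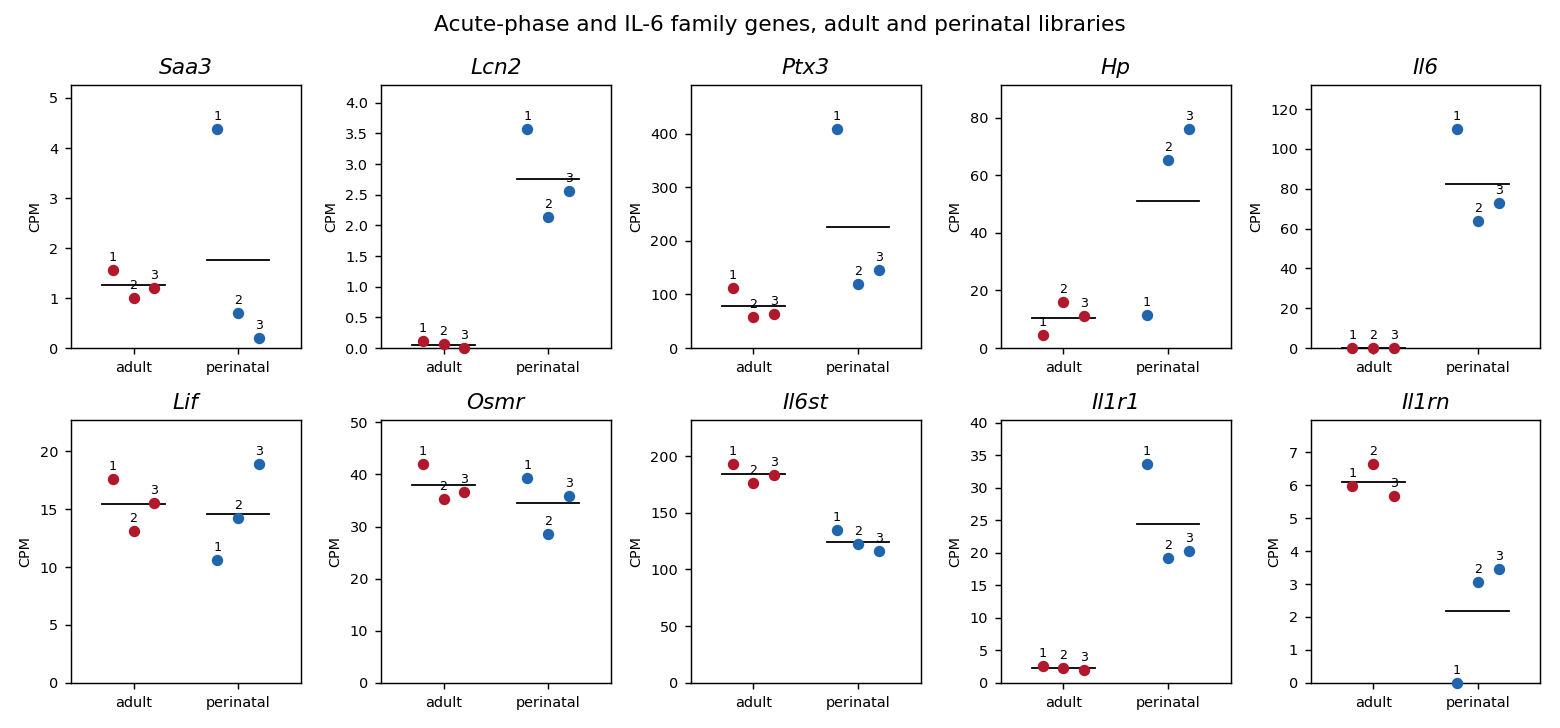
CPM of each of the 10 genes in the 3 adult and the 3 perinatal libraries; each point is a library with its replicate number, and the line is the group mean (n = 3 each). Il6 lies at 0 to 0.289 CPM in adult cells, against 63.8 to 110 CPM in perinatal libraries, and perinatal replicate 1 stands apart in Saa3, Ptx3 and Hp.

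**Figure D3:**
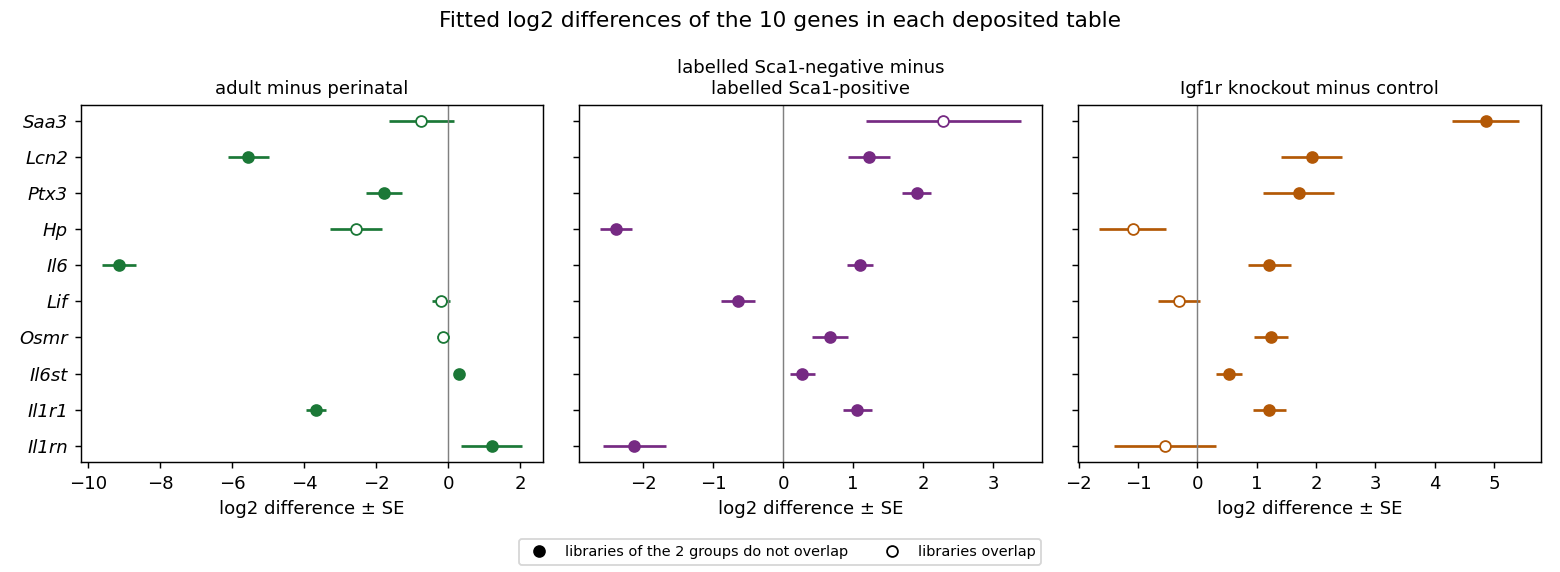
Fitted log2 differences with their SE (horizontal axis) for the 10 genes (rows) in the adult, Sca1 and knockout tables (panels, each with its own scale); filled points have no overlap between the libraries of both groups. Il1r1 is at -3.66 in adult cells, 1.06 in the libraries labelled Sca1-negative and 1.21 in knockouts; the panels share perinatal replicates 2 and 3.

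Levels between genes were compared per transcript length, in the authors' length-scaled TPM from the adult table and the Sca1 table. In adult cells Ptx3 was the most abundant of the 10 at 69.9 ± 28.5 TPM, followed by Il6st at 44.9 ± 3.44 TPM (SD, n = 3). The libraries of Osmr, Hp, Lif, Il1rn and Saa3, with means of 13.2, 13.02, 10.6, 7.97 and 6.86 TPM, overlapped from each neighbour to the next. Il1r1 at 0.838 TPM, Il6 at 0.417 TPM and Lcn2 at 0.138 TPM came last and overlapped likewise. In perinatal cells Ptx3 at 187 ± 114 TPM and Il6 at 147 ± 21.4 TPM led and overlapped (SD, n = 3), ahead of Hp at 57.1 TPM and Il6st at 23.4 TPM. Il6 thus held the second place in perinatal cells and the place before last in adult cells. In the libraries labelled Sca1-negative Ptx3 at 401 ± 3.56 TPM stood clear of Il6 at 246 ± 36.5 TPM, and in those labelled Sca1-positive Il6 at 136 ± 14.4 TPM overlapped Ptx3 at 121 ± 17.8 TPM (SD, n = 2).

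The genes around these members were read from 6 lists with 97 genes in all, tested over the whole table with edgeR. The lists, like the 10 genes, were chosen with earlier results of these data known. Their adjusted p-values and shares called do not allow for that choice and are given as a description. In the knockout none of the 75 tested list genes was called higher or lower at an adjusted p under 0.05, where 0 of all genes were called higher and 0.0368% lower. At an unadjusted p under 0.05, 14 list genes were higher and 6 lower, beside 12.1% higher and 9.68% lower of all genes. DESeq2 called 8 of 78 higher and 3 lower, beside 3.29% higher and 3.68% lower of all 14331 genes it tested, so the lower calls were near the share over all genes. Those called higher were the IL-6 family ligand Ctf2, the IL-33 receptor Il1rl1 and its ligand Il33, the kinase Irak1 and its inhibitory relative Irak3, the protease inhibitor Serpina3n, the zinc importer Slc39a14 and Tnfaip6, a hyaluronan-binding partner of PTX3. Those called lower were A2m and the receptor chains Cntfr and Il11ra1. Without knockout 1 edgeR called 13 of 77 higher and 8 lower, beside 11.0% higher and 10.5% lower of all genes. Without control 1 it called 5 of 77 higher and 1 lower, beside 0.680% higher and 1.51% lower of all genes.

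Il1rl1 was at 16.3, 17.7 and 18.3 CPM in knockouts, against 5.03, 5.08 and 3.25 CPM in controls, a log2 difference of 1.99 (SE 0.29, edgeR adjusted p = 0.0874). Tnfaip6 was at 692, 1587 and 1317 CPM in knockouts, against 687, 343 and 416 CPM in controls (1.34, SE 0.43, edgeR adjusted p = 0.181). For Tnfaip6 knockout 1 was level with control 1, and for Il1rl1 the groups stood well apart. Il11ra1, the receptor chain of IL-11, averaged 289 ± 159 CPM in knockouts and 704 ± 65.3 CPM in controls (mean ± SD, n = 3 each; log2 difference -1.29, edgeR adjusted p = 0.179). Socs3, the feedback inhibitor of the pathway, averaged 632 ± 326 CPM in knockouts and 819 ± 277 CPM in controls (mean ± SD, n = 3 each), with overlapping libraries. The kinase Jak1 averaged 270 ± 47.1 CPM in knockouts and 187 ± 21.7 CPM in controls (mean ± SD, n = 3 each; edgeR adjusted p = 0.228). The list medians were -0.41 for IL-6 family ligands and receptors, -0.29 for JAK, STAT and SOCS genes and 0.33 for IL-1 genes on the log2 scale. They were -0.37 for NF-kB and C/EBP regulators, 0.49 for other acute-phase genes and -0.89 for partners of the acute-phase proteins.

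In the comparison by Sca1 label, edgeR called 6 of the 75 tested list genes higher and 3 lower, where 1.63% of all genes were called higher and 2.79% lower. Most of the calls were acute-phase genes: of 13 tested, 4 rose and 2 fell. Lbp, the lipopolysaccharide-binding protein, averaged 116 ± 23.3 CPM in the libraries labelled Sca1-negative, against 30.7 ± 5.38 CPM in those labelled Sca1-positive (mean ± SD, n = 2 each; log2 difference 1.94, edgeR adjusted p = 0.00851). The metallothioneins Mt1 and Mt2 rose by 1.52 and 1.69 on the log2 scale (edgeR adjusted p = 0.0270 and 0.0195), and Serpina3n by 1.37 (edgeR adjusted p = 0.0462). The protease inhibitor A2m fell by 3.01 (edgeR adjusted p = 0.0334) and Serpina3g by 1.5 (edgeR adjusted p = 0.0423). In the list of partners, Tnfaip6 rose by 1.31 (edgeR adjusted p = 0.0245), while the protease Mmp9 fell by 4.05 (edgeR adjusted p = 0.00726). Of 14 IL-1 genes 1 rose, the signalling inhibitor Irak3, by 1.43 (edgeR adjusted p = 0.0322). None of the 12 IL-6 family genes, 13 JAK, STAT and SOCS genes or 19 NF-kB and C/EBP regulators passed the test. Without labelled Sca1-negative replicate 2 the calls were 11 of 76 higher and 6 lower, beside 7.99% and 8.24% of all genes. Without labelled Sca1-negative replicate 3 they were 17 of 75 higher and 13 lower, beside 16.3% and 18.4% of all genes. Without labelled Sca1-positive replicate 2 they were 3 of 76 higher and 4 lower, beside 1.03% and 2.52% of all genes, and without replicate 3 they were 4 of 76 higher and 2 lower, beside 1.2% and 2.28%.

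Of 77 list genes tested in the adult table, 31 were called higher and 33 lower, where 37.4% of all genes were called higher and 39.7% lower, so calls were common everywhere. All 12 tested IL-6 family ligands and receptors passed, 3 higher and 9 lower, with a median log2 difference of -1.84. Il6ra, the specific receptor of IL-6, averaged 77.2 ± 6.21 CPM in adult cells, against 2.66 ± 0.515 CPM in perinatal cells (mean ± SD, n = 3 each; log2 difference 4.59, edgeR adjusted p = 1.24e-06). Ebi3, a chain of the IL-27 ligand, rose by 5.10 (edgeR adjusted p = 7.69e-06), while the receptor chains Cntfr fell by 5.85 and Il11ra1 fell by 3.76 (edgeR adjusted p = 1.02e-04 and 5.03e-06). The ligand Osm, which binds the Osmr product, was among the genes that rose, at 10.6 ± 1.99 CPM in adult cells, against 0.747 ± 0.431 CPM in perinatal cells (mean ± SD, n = 3 each; edgeR adjusted p = 1.43e-04).

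Of 13 JAK, STAT and SOCS genes 6 rose and 3 fell in adult cells (median 0.13). The feedback inhibitors Socs3 fell by 3.88 and Cish fell by 4.66, and the STAT target Pim1 rose by 3.49 (edgeR adjusted p from 5.71e-07 to 4.64e-06). Of 16 IL-1 genes 9 rose and 3 fell (median 0.90). Casp1, the protease that matures IL-1 beta, averaged 28.1 ± 7.08 CPM in adult cells, against 0.131 ± 0.139 CPM in perinatal cells (mean ± SD, n = 3 each), while the alarmin Il33 fell by 5.78 (edgeR adjusted p = 1.01e-05 and 2.11e-05). Of 19 NF-kB and C/EBP regulators 9 rose and 6 fell (median 0.43). The NF-kB inhibitor Nfkbia averaged 68.0 ± 4.94 CPM in adult cells, against 2183 ± 246 CPM in perinatal cells, and Cebpa, a myeloid and adipocyte factor, averaged 271 ± 18.4 CPM in adult cells, against 6.65 ± 0.952 CPM in perinatal cells (mean ± SD, n = 3 each). Nfkbiz fell by 3.65 and Cebpd by 2.67 (edgeR adjusted p = 8.83e-07 and 3.47e-06).

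Of the 11 other acute-phase genes tested between adult and perinatal cells, 1 rose and 9 fell (median -2.20). Steap4, a metalloreductase known to respond to inflammatory cytokines, was at 0 in all adult libraries, against 93.9 ± 0.863 CPM in perinatal libraries (SD, n = 3), at least 491-fold lower on a floor of 3 counts per library. Lrg1 fell by 4.80, Serpina3n fell by 6.72 and Serpina3g fell by 5.62 (edgeR adjusted p = 1.70e-05, 7.14e-05 and 7.21e-05). Of the 6 partners 3 rose and 3 fell. Tnfaip6 fell to 0.219 ± 0.137 CPM in adult cells, against 549 ± 296 CPM in perinatal cells (mean ± SD, n = 3 each), and the Lcn2 receptor Slc22a17 fell by 3.91 (edgeR adjusted p = 1.10e-05). The haptoglobin receptor Cd163, a macrophage gene, rose by 5.10 (edgeR adjusted p = 1.63e-04) in the libraries with high macrophage sums. The partners' median was -0.66, and -0.71 with Lrp2, at 0 in perinatal cells, set at its bound of at least 5.63-fold higher. Il11ra1, Serpina3n and Serpina3g belong to families with near-identical copies in the mouse genome, and how shared reads were counted remains not given in the sources used here, so their values are uncertain.

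**Figure D4:**
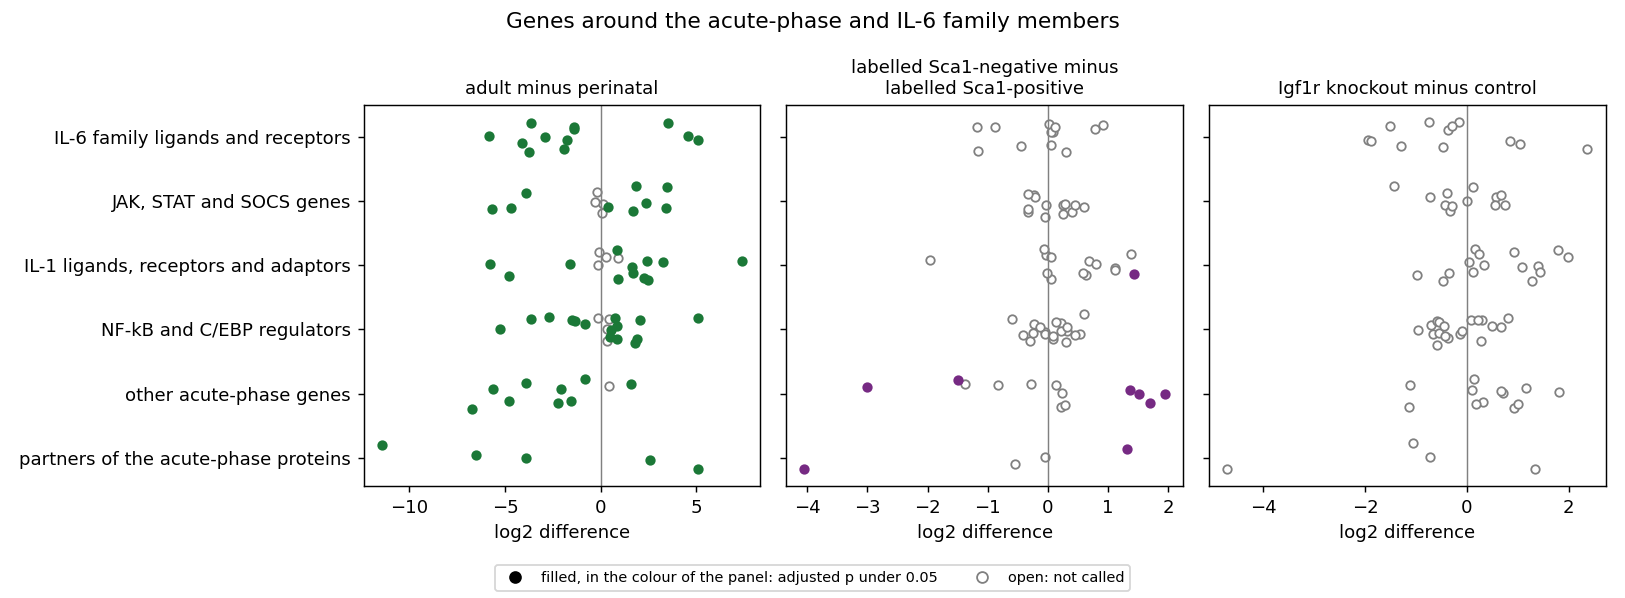
Fitted log2 differences (horizontal axis) of tested genes in the 6 lists (rows) for the adult, Sca1 and knockout tables (panels); filled points are called by edgeR at an adjusted p under 0.05, and Steap4 and Lrp2, at 0 in a whole group, are left out of the adult panel. The adult panel holds 31 higher and 33 lower calls with these 2 counted, the Sca1 panel 6 and 3, and the knockout panel none.

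For each member the genes with the most similar pattern were found over the 12 columns of the adult and knockout tables, which hold 10 distinct libraries. Likeness was the mean absolute difference of log2(CPM + 0.5), centred in each table. It was taken among 11981 genes with a mean of at least 1 CPM in both. Genes with Gm or Rik names and ribosomal protein pseudogenes had been left out. Ptx3 was nearest to Mt2, Serpina3c and Mt1, at 0.287 to 0.318 on the log2 scale. Lcn2 was nearest to Cxcl5, Gldc and Ms4a4d (0.307 to 0.321) and Il6 to Tnnc2, Tmem100 and Gfpt2 (0.234 to 0.294). Lif was nearest to Il1rl2, Stat3 and Sptb (0.105 to 0.118), Osmr to Pde5a, Igbp1 and Fam102b (0.147 to 0.159) and Il6st to Stard7, Gfm1 and Qars (0.0519 to 0.0818). Il1r1 was nearest to Tm4sf1, Fzd6 and Cbln2 (0.151 to 0.163). None of these 11981 genes came close to Saa3, whose nearest were Pnp2, S100a4 and Eif4ebp3 (0.694 to 0.759). Il1rn and Hp were in between, with Spata13 at 0.389 and Lamc3 at 0.312.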

How the data were processed

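RNA was sequenced from 11 samples of sorted mouse bone marrow stromal cells, grouped by their labels. The authors deposited 3 tables with whole-number counts per gene for every library. The adult and Sca1 tables also hold TPM values that the authors computed, per the file headers, and which were used here to compare levels between genes. The submitters' processing notes name Trimmomatic 0.32, the build mm10 and DESeq2. The aligner, counter, annotation and strand setting remain not given in the sources used here, so reads of a gene and an antisense partner cannot be told apart.

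Each table was fitted by itself on the deposited counts, with edgeR 4.0.16 in R 4.3.3: filterByExpr, TMM factors, robust glmQLFit and glmQLFTest, with no term but the group. P-values were Benjamini-Hochberg adjusted over all genes of a table, with calls at an adjusted p under 0.05. The SE of a log2 difference is its absolute value over the root of F. CPM use library totals without TMM. Library totals and the floor of 3 counts are given above. The scripts were tested on simulated data. Alternatives were DESeq2 1.42.0, RLE and upper quartile factors, other filters, leaving out each replicate, a replicate block, and leaving out the libraries whose Ly6a goes against their label.

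The 10 members and all gene lists were chosen with earlier results of these data known. Of each list and comparison, up to 4 called genes with the smallest adjusted p were named, or the 2 most abundant where none was called. A gene that this rule took is not reported here. Osm and Lrp2 in adult cells, Pdgfra, and Il1rl1 and the genes DESeq2 called in the knockout were named after their values were seen, as were Serpina3n and Serpina3g between the Sca1 labels. Gene coordinates are from GENCODE M21 and promoters from RefSeq GRCm38.p6.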

Additional observations from a re-analysis of the deposited data

How the results depend on the processing

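With 2 or 3 libraries per group, calls on list genes depended on the test and on single libraries. In the knockout DESeq2 called 8 list genes higher and 3 lower where edgeR called 0 and 0, and leaving out each replicate in turn gave 0 to 13 higher and 0 to 8 lower. Between the Sca1 labels DESeq2 called 5 genes lower where edgeR called 3, and leaving out replicates gave 3 to 17 higher and 2 to 13 lower. In the adult table leaving out replicates gave 27 to 34 higher and 33 to 35 lower calls. Where this left 1 library in a group, its spread was taken from the other group. Why the counts differ was not tested. Scaling by RLE or upper quartile factors and the filters on low counts kept every count of list calls within 1.5 times its main value.

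The labels give groups shared replicate numbers but no shared animal or day. Control 1 of the knockout table has its number from its title, and its count column carries another number. Same-numbered libraries deviated together with correlations of -0.0192, -0.0179 and 0.187 in the adult table and 0.19, 0.119 and 0.0564 in the knockout table. Different-numbered libraries ran from -0.204 to 0.147 in the adult table and from -0.272 to 0.196 in the knockout table. These values do not settle whether the numbers are pairs, and the main fits did not take them as pairs. The Sca1 table has only 2 numbers (0.303 each). With a replicate block, list calls were 29 higher and 33 lower in the adult table, 8 higher and 6 lower between the Sca1 labels, and 0 and 0 in the knockout.

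Of the log2 differences of the 10 genes under the alternatives, 11 of the adult table, 2 of the Sca1 table and 5 of the knockout table moved by more than the spread between replicates, and 129, 108 and 135 did not. The sign changed under an alternative for Hp and Il1rn in the knockout, Lif and Saa3 in the adult table and Saa3 between the Sca1 labels, genes whose libraries overlapped.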
